A study of Mus musculus with 33 samples.

Results

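The 10 classical antioxidant enzyme genes were followed through the frontal cortex libraries: the superoxide dismutases Sod1 and Sod2, catalase (Cat), the glutathione peroxidases Gpx1 and Gpx4, and the peroxiredoxins Prdx1, Prdx2, Prdx3, Prdx5 and Prdx6. They were chosen by gene symbol alone, and each of the 10 matched a single row among the 21565 genes of the table. Messenger RNA of the frontal cortex had been sequenced from 33 male adult mice of C57BL/6J background. Wild-type (WT) mice underwent control sleep (CS, n = 6), sleep deprivation for 6 hr (SD, n = 7) or, by the study's methods, 4 hr of deprivation and then 2 hr of recovery sleep (RS, n = 7), so SD and RS also differ in the length of deprivation. Mef2c f/f mice, which carry loxP sites around a Mef2c exon that encodes part of the DNA-binding region, underwent CS (n = 4) or SD (n = 3). Mef2c-cKO mice (CS, n = 3, and SD, n = 3) carry the same floxed alleles with Cre driven by the Camk2a promoter, which is active in excitatory forebrain neurons. Some of the Mef2c-cKO mice had also undergone germline recombination, and mice with Cre alone were not among the groups. All tissue was collected at ZT 6, and sleep was prevented with a slowly moving treadmill. By the study's methods, mice used for sequencing were moved from a light/dark to a dark/dark schedule before the experimental day.

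Superoxide leaking from the respiratory chain is converted to hydrogen peroxide by superoxide dismutases, by Sod1 in the cytosol with copper and zinc and by Sod2 in the mitochondrial matrix with manganese. The peroxide is then removed by catalase in peroxisomes, by glutathione peroxidases at the cost of glutathione, and by peroxiredoxins, most of which are recharged by thioredoxin. Gpx4 reduces lipid peroxides inside membranes and is the enzyme that holds back ferroptosis, and Gpx1 acts on soluble peroxides. Prdx1 and Prdx2 are cytosolic, Prdx3 is mitochondrial, Prdx5 is found in mitochondria, peroxisomes and cytosol, and Prdx6, which is abundant in astrocytes, also has phospholipase activity. Catalase and Prdx2 are abundant in red blood cells. Several of these genes are textbook targets of NRF2, which binds the antioxidant response element of promoters.

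Promoters are shown for Sod1, called higher in both WT sleep-loss groups, and for Prdx1, called in neither, because theirs were the 2 that held the core letters of the antioxidant response element, TGACNNNGC or GCNNNGTCA on the other strand. RefSeq promoters (GRCm38.p6) were found for 9 of the 10 genes, and Prdx6 had no entry. Within the 250 bases before the start site, 2 of these 9 genes held a match, against 11.5% of the 27025 genes in the table. The sequences below stop at the base before the start of the gene in GENCODE M21, are written 5′ to 3′ on the strand of the gene, and have the match in capitals.
Sod1, chr16:90220512-90220753, plus strand: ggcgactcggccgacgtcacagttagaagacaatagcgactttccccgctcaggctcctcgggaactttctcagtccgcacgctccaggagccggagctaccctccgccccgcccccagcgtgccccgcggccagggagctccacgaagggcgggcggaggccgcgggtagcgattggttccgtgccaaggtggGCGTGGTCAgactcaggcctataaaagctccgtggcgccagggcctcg
Prdx1, chr4:116685349-116685543, plus strand: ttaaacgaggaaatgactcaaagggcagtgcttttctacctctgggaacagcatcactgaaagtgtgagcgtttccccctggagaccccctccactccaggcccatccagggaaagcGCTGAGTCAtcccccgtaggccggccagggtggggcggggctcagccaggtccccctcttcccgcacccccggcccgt
The match of Sod1 began 56 bases and that of Prdx1 133 bases upstream of the RefSeq start, and the match of Prdx1 holds the letters TGAGTCA of an AP-1 site. The letters GGGCGG or CCGCCC, the core of the GC box bound by SP1, stood in the promoters of 7 of the 9 genes (Sod1, Sod2, Cat, Gpx4, Prdx1, Prdx3 and Prdx5) against 35.4% of those genes. A match is a description of the letters and says nothing of binding in these libraries.

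The libraries held 18935045 to 249046089 reads, and each of the 10 genes had at least 563 reads in every library. Values are CPM, the reads of a gene per 1000000 reads of its library, divided by a factor per library that sets the median gene equal between libraries. Excitatory neuron, inhibitory neuron, astrocyte and oligodendrocyte markers were present in every group, and the summed markers of red blood cells ran from 28.2 to 118 CPM in WT CS and 97.9 to 285 CPM in WT SD. In bulk tissue, fewer cells of a type cannot be told apart from less RNA per cell. The total Mef2c signal was 1205, 1096, 1201 and 1079 CPM in Mef2c f/f CS and 955, 1606 and 1724 CPM in Mef2c-cKO CS, and 1248, 1133 and 1404 CPM and 1498, 1114 and 1316 CPM in the SD groups, but it includes the exons outside the deleted part and so checks nothing about the deletion. Mef2c-cKO CS replicate 8 had the highest summed astrocyte markers of its group (5496 against 3582 and 4130 CPM) and the highest microglial markers (435 against 163 and 194 CPM), with the lowest red blood cell markers (10.7 against 63.0 and 108 CPM). Choroid plexus markers summed to 311 CPM in Mef2c-cKO CS replicate 5, against 6.53 and 3.76 CPM in replicates 7 and 8. They summed to 184 and 61.5 CPM in WT CS replicates 1 and 3, against 13.1 to 23.4 CPM in the other WT CS libraries. The part of choroid plexus in the values was not tested. WT CS replicate 2 had the lowest Gpx4 and Prdx5 of all 33 libraries. Where a fold change of the 10 genes rested most on Mef2c-cKO CS replicate 8 or WT CS replicate 2, it is given with and without that library. Correlations between genes are given over all 33 libraries only.

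Compared per kilobase of the principal transcript, the 10 genes lay within the same order of magnitude. In WT CS the order was Sod1 at 96.0 ± 7.63 CPM per kb (mean ± SD, n = 6), Prdx2 at 77.2 ± 6.00, Gpx4 at 67.2 ± 38.5, Prdx5 at 55.3 ± 25.0, Prdx6 at 34.7 ± 5.96, Prdx1 at 32.6 ± 6.80, Gpx1 at 32.5 ± 7.40, Sod2 at 23.0 ± 3.31, Prdx3 at 19.7 ± 3.11 and Cat at 16.8 ± 4.81 CPM per kb. The cytosolic dismutase therefore stood at the top and the peroxisomal catalase at the bottom. Among neighbours in this order, Sod1 and Prdx2 were apart by more than their SDs, and the SDs of every other pair of neighbours overlapped. The principal transcript of Sod2 is 5861 bases long and that of Sod1 641 bases, so shorter forms of Sod2 would raise its level per kb.

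**Figure D1:**
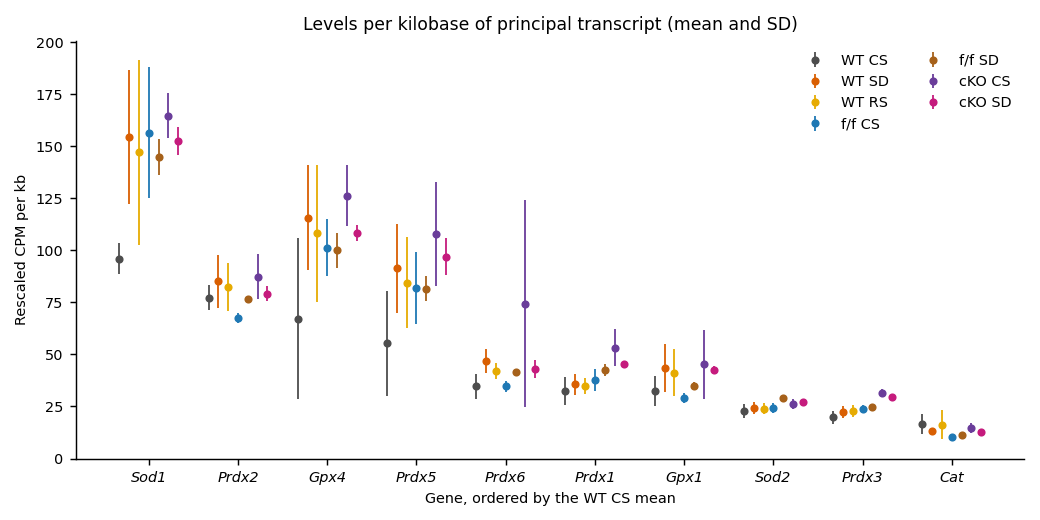
Mean level of each gene (vertical axis, rescaled CPM per kb of principal transcript, linear from 0) in the 7 groups, with SD as bars, genes ordered by their WT CS mean. Sod1 is highest in every group, and Cat is lowest in every group.

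The comparison of CS to SD in WT mice asks what 6 hr of enforced waking does to cortical transcripts. Sod1, Gpx4, Prdx5 and Prdx6 were higher after SD, and none of the 10 genes was lower (limma, with calls at a Benjamini-Hochberg adjusted p up to 0.05 and a log2 change of 0.3 or more in size). The count of 4 of 10 stands beside 45.1% of all 12913 genes called in either direction and 24.6% called higher, so it is near the background of a comparison in which much of the transcriptome moved. The median log2 fold change of the 10 genes was 0.30, and that of all genes tested was 0.04. With CPM as deposited, without the factors, 9 of the 10 were called, but then the median of all genes moved to 0.30 and the split of all calls went from 3182 higher and 2643 lower to 6106 higher and 801 lower.

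Among the dismutases, Sod1 (chromosome 16, 90220754 to 90226329, plus strand, 5 exons in the principal transcript, GRCm38) separated the groups. It ran from 52.8 to 67.8 CPM with a median of 62.1 in the 6 CS libraries and from 71.5 to 126 CPM with a median of 106 in the 7 SD libraries. Every SD library was above every CS library, which held for 15.1% of all genes tested and for Sod1 alone among the 10. The means were 61.6 ± 4.89 (SD, n = 6) and 98.9 ± 20.6 (SD, n = 7) CPM, and the log2 fold change was 0.65 ± 0.13 (SE), adjusted p = 0.00228. Mitochondrial Sod2 (chromosome 17, 13006846 to 13040063, plus strand, 5 exons) ran from 119 to 170.1 CPM with a median of 128 in CS and from 127 to 175 CPM with a median of 138 in SD. Its groups overlapped almost completely, and its log2 fold change of 0.09 ± 0.10 (SE) had an adjusted p of 0.472 and a 95% interval of -0.12 to 0.30. Under a correction for GC content and transcript length Sod2 was called higher, at 0.44 (adjusted p = 0.0345).

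Catalase (chromosome 2, 103453849 to 103485160, minus strand, 13 exons) was not called. It ran from 31.1 to 65.5 CPM with a median of 41.6 in CS and from 31.5 to 40.2 CPM with a median of 34.4 in SD, and its log2 fold change was -0.28 ± 0.14 (SE) with an adjusted p of 0.111. The upper end of the CS range, 65.5 CPM, came from replicate 2, without which the log2 fold change was -0.15. Without WT CS replicate 5, the lowest CS library of Cat at 31.1 CPM, Cat was called lower. In that fit 6 of the 10 genes were called, 5 higher and 1 lower. Of the 10 genes it was the only one with a fitted value below 0 in this comparison.

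Both glutathione peroxidases had fitted values above 0, and Gpx4 passed the test. Gpx4 (chromosome 10, 80047166 to 80056439, plus strand, 7 exons) ran from 15.5 to 115 CPM with a median of 62.8 in CS and from 72.8 to 139 CPM with a median of 119 in SD. The SD range lay within the upper part of the CS range and above it, so the groups overlapped. Its log2 fold change was 1.01 ± 0.36 (SE), adjusted p = 0.0308, the largest of the 10. Without WT CS replicate 2, the lowest library at 15.5 CPM, the log2 fold change was 0.66 (adjusted p = 0.0434), and it lost its call when any of 5 other libraries was left out (WT CS replicate 1, WT SD replicates 2, 4, 8 and 9). It was also not called without the filter on low values (adjusted p = 0.0584), with edgeR (0.77, adjusted p = 0.0718) or with DESeq2 (0.77, adjusted p = 0.0684). DESeq2 still called 4 of the 10 genes higher, with another gene in place of Gpx4. Gpx1 (chromosome 9, 108338903 to 108340343, plus strand, 2 exons) ran from 26.9 to 47.9 CPM with a median of 33.1 in CS and from 27.4 to 66.0 CPM with a median of 47.2 in SD, and its log2 fold change of 0.40 ± 0.18 (SE) was not called (adjusted p = 0.074).

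Of the peroxiredoxins, Prdx5 and Prdx6 rose. Prdx5 lies on chromosome 19, 6906697 to 6910106, minus strand, 6 exons, and Prdx6 on chromosome 1, 161240112 to 161251219, minus strand, 5 exons. Prdx5 ran from 27.4 to 109.8 CPM with a median of 65.1 in CS and from 72.6 to 159.8 CPM with a median of 108 in SD, with a log2 fold change of 0.83 ± 0.27 (SE) (adjusted p = 0.022), or 0.59 (adjusted p = 0.0353) without WT CS replicate 2. Prdx6 ran from 58.4 to 97.1 CPM with a median of 85.6 in CS and from 91.8 to 129 CPM with a median of 111 in SD, with a log2 fold change of 0.44 ± 0.12 (SE) (adjusted p = 0.00942). In both genes the groups overlapped. Prdx6 kept its call in all 13 fits that left out 1 library, at log2 fold changes of 0.35 to 0.49. Prdx1 and Prdx2 of the cytosol and Prdx3 of the mitochondrion were not called. They lie on chromosomes 4, 8 and 19. Prdx1 had a log2 fold change of 0.14 ± 0.13 (SE) (adjusted p = 0.374), Prdx2 of 0.13 ± 0.10 (SE) (adjusted p = 0.275) and Prdx3 of 0.19 ± 0.11 (SE) (adjusted p = 0.158).

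The call for Gpx4 and that for Prdx5 were lost under a correction for base composition and length. The longest annotated transcripts of Gpx4, Gpx1 and Prdx5 are rich in G and C, at the 96.1, 88.1 and 84.8 percentile of all genes. Those of Sod1 and Prdx6 lie at the 43.0 and 49.6 percentile, and the one used for Sod1 is 3970 bases long. After correction of each library for GC content and transcript length, the log2 fold change was 0.30 for Gpx4 (adjusted p = 0.286) and 0.39 for Prdx5 (adjusted p = 0.114), so neither was called. Under the same correction Sod1 stood at 0.74 (adjusted p = 0.00252) and Prdx6 at 0.43 (adjusted p = 0.0191), both called, and 3 of the 10 genes were called, Sod2 among them. The red blood cell markers rose between the same groups, with 5 of the 5 tested called higher, and meningeal fibroblast markers had 4 of 5 called higher (summed level 8.49 to 40.2 CPM in CS and 47.2 to 76.8 CPM in SD). The part of these cells in the values of the 4 called genes was not tested.

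**Figure D2:**
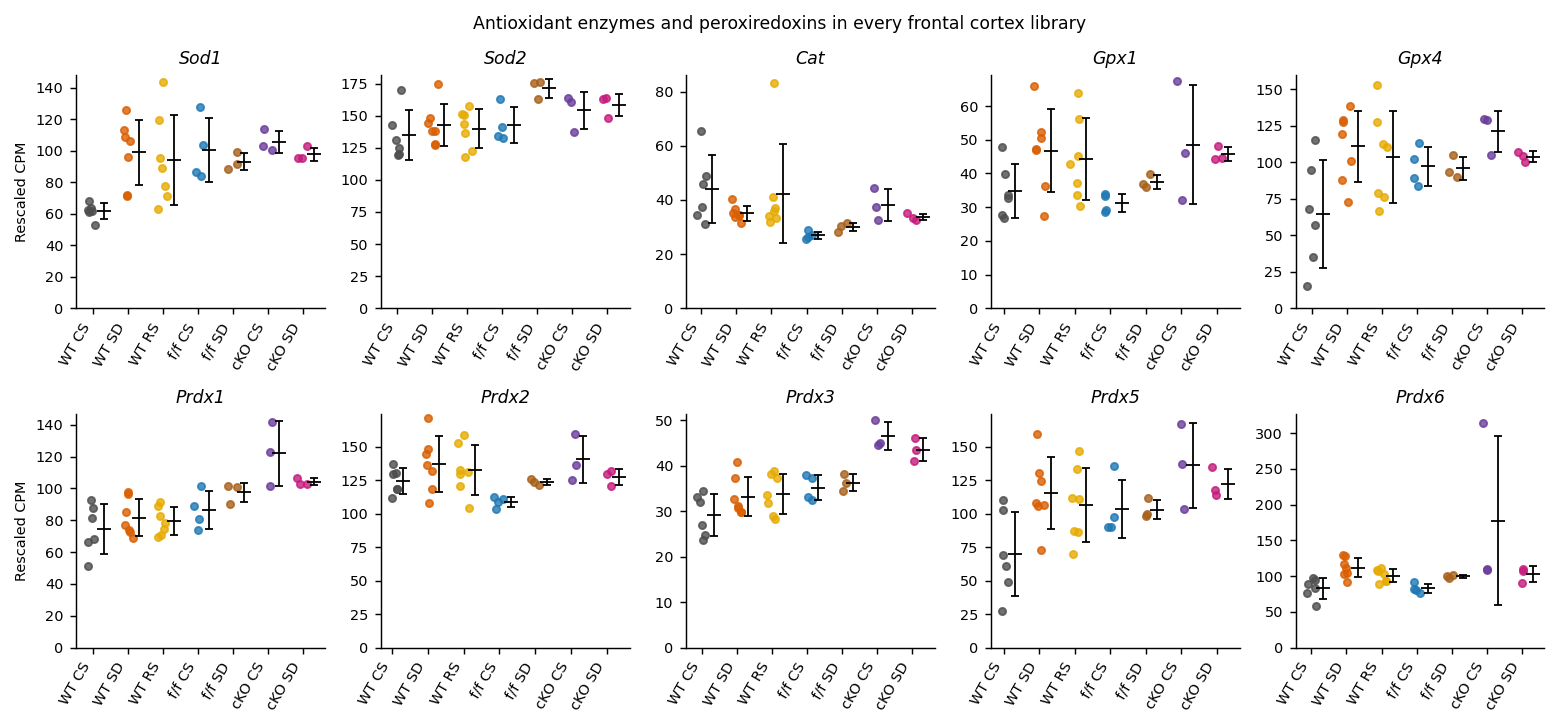
Rescaled CPM of each of the 10 genes (vertical axes, linear from 0) in every library of the 7 groups (points), with the group mean and SD as black bars. Every WT SD library of Sod1 lies above every WT CS library, and 1 Mef2c-cKO CS library of Prdx6 lies at 314 CPM.

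The RS group asks which differences from CS were present after the shorter deprivation and recovery sleep. Sod1 alone was called higher in RS than in CS, 1 of 10 beside 17.5% of 12752 genes called in either direction and 9.28% called higher. That background rested on single libraries, since no gene at all was called without any of WT CS replicate 3 or WT RS replicates 3, 5, 6 and 12, and 3 genes were called without WT RS replicate 4, 98 without WT CS replicate 2 and 223 without WT CS replicate 1. Sod1 ran from 63.3 to 144 CPM with a median of 89.1 in the 7 RS libraries, and the log2 fold change was 0.56 ± 0.16 (SE), adjusted p = 0.0391. The RS library at 63.3 CPM lay inside the CS range and the other 6 above it. Sod1 lost its call when any of WT CS replicates 1, 2 and 3 or WT RS replicates 3, 4, 5, 6 and 12 was left out, with log2 fold changes of 0.45 to 0.65 over all 13 such fits. The log2 fold change was 0.89 ± 0.38 (SE) for Gpx4 (adjusted p = 0.0849), 0.71 ± 0.28 (SE) for Prdx5 (adjusted p = 0.0695) and 0.29 ± 0.11 (SE) for Prdx6 (adjusted p = 0.063), none of them called. Without WT CS replicate 2 these were 0.53, 0.47 and 0.20. The other 6 genes had log2 fold changes between -0.09 (Cat) and 0.32 (Gpx1). Cat stood at 83.3 CPM in WT RS replicate 1, without which its log2 fold change was -0.26, and without WT CS replicate 2 it was 0.04. This comparison uses the same 6 CS libraries as the comparison of CS to SD, so the values of both are not independent.

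Between SD and RS, which share no library, none of the 10 genes was called, beside 0.0232% of 12921 genes (3 genes) called in either direction. The log2 fold changes lay between -0.15 (Prdx6) and 0.19 (Cat). Without WT RS replicate 1 the value of Cat was 0.01. For Sod1 the 95% interval of the log2 difference was -0.46 to 0.28, and for Gpx4 it was -0.52 to 0.27. At an unadjusted p of at most 0.05, 683 genes but none of the 10 passed.

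**Figure D3:**
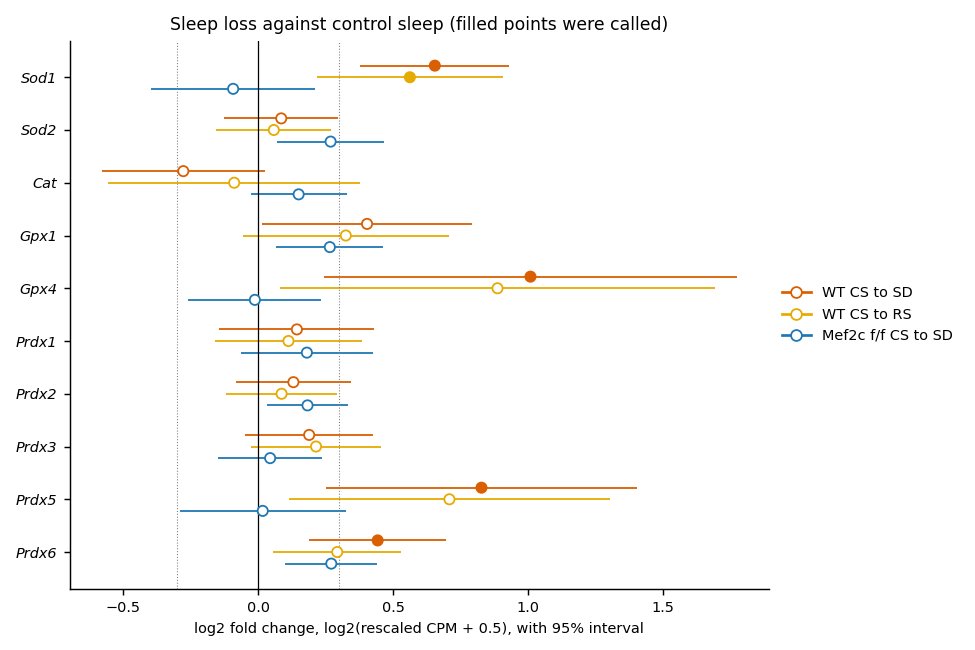
Log2 fold change (horizontal axis, linear, with 95% intervals) of the 10 genes in WT CS to SD, WT CS to RS and Mef2c f/f CS to SD, with filled points for called genes and dotted lines at the fold threshold of 0.3. Sod1, Gpx4, Prdx5 and Prdx6 are filled for WT CS to SD, Sod1 alone for WT CS to RS and no gene for Mef2c f/f.

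In Mef2c f/f mice, whose floxed alleles were not recombined, none of the 10 genes was called between CS and SD, beside 0.0403% of 12410 genes (5 genes) called in either direction. The background of this comparison moved with the method, to 466 genes with DESeq2, 1750 with array quality weights, 115 under the GC and length correction and 590 without Mef2c f/f CS replicate 1. None of the 10 was called in the first 3 of these, and Sod2 and Prdx6 were called in the last. Sod1 was 83.7, 104, 86.7 and 128 CPM in the 4 CS libraries and 91.6, 98.9 and 88.2 CPM in the 3 SD libraries. The SD values lay inside the CS range, and the log2 fold change was -0.09 ± 0.14 (SE) (adjusted p = 0.749). Gpx1 was 29.2, 33.3, 28.6 and 33.8 CPM in CS and 37.0, 39.8 and 35.9 CPM in SD, and Prdx6 91.1, 81.8, 76.8 and 80.7 CPM in CS and 101, 97.6 and 99.7 CPM in SD. In Gpx1, Prdx2 and Prdx6 every SD library exceeded every CS library, 3 of 10 beside 17.4% of all genes tested. Their adjusted p were 0.195, 0.216 and 0.153, at log2 fold changes of 0.27 ± 0.09 (SE), 0.18 ± 0.07 (SE) and 0.27 ± 0.08 (SE). Gpx4 and Prdx5 had log2 fold changes of -0.01 and 0.02. At an unadjusted p of at most 0.05, 2111 genes passed, Gpx1, Prdx2, Prdx6 and Sod2 among them.

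The difference between the genotypes' responses to SD, Mef2c f/f minus WT, was called for Sod1 alone and was negative, at -0.75 ± 0.21 (SE) on the log2 scale (adjusted p = 0.033). That is 1 of 10 beside 15.1% of 13106 genes called in either direction and 5.78% called lower. The Mef2c f/f CS libraries of Sod1, at 100.4 ± 20.1 (SD, n = 4) CPM, stood beside 98.9 ± 20.6 (SD, n = 7) CPM in WT SD and 61.6 ± 4.89 (SD, n = 6) CPM in WT CS. Gpx4 and Prdx5 had the differences -1.02 ± 0.53 (SE) (adjusted p = 0.15) and -0.81 ± 0.41 (SE) (adjusted p = 0.141), which did not pass, and were -0.67 and -0.57 without WT CS replicate 2. The Sod1 call was lost under the GC and length correction (-0.81, adjusted p = 0.0661). It was also lost when any of WT SD replicates 8 and 9, Mef2c f/f CS replicates 2 and 4 or the 3 Mef2c f/f SD libraries was left out, at differences of -0.83 to -0.62 over all 20 such fits. Summed over the table, CPM fell short of 1000000 in WT libraries and came to 1000000 in the others, so how the tables were made and the genotype cannot be told apart. In the same comparison red blood cell markers had 5 of 5 called lower, with a median of -2.62, as they summed to 123 to 182 CPM in Mef2c f/f CS and 56.3 to 105 CPM in Mef2c f/f SD. Meningeal fibroblast markers had 2 of 6 called lower, with a median of -1.08, and excitatory neuron and oligodendrocyte markers had 2 of 6 each called higher. Their part in the Sod1 value was not tested.

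In Mef2c-cKO mice none of the 10 genes was called between CS and SD, beside 0.0234% of 12810 genes (3 genes) called in either direction. The log2 fold changes of 9 genes lay between -0.22 (Gpx4) and 0.04 (Sod2), and that of Prdx6 was -0.60 ± 0.39 (SE) (adjusted p = 0.998). Prdx6 was 108, 110.2 and 314 CPM in CS, in the order of replicates 5, 7 and 8, and 107, 90.7 and 110.5 CPM in SD. Replicate 8, the library with the high astrocyte and microglial markers, held most of that difference, and without it the log2 fold change was -0.09. The difference of the SD responses between Mef2c-cKO and Mef2c f/f was called for none of the 10 genes, beside 0.00778% of 12860 genes (1 gene). At an unadjusted p of at most 0.05, 391 genes passed for Mef2c-cKO CS to SD, none of the 10 among them, and 1005 for the difference of responses, among them Cat, Prdx1, Prdx2 and Prdx6, whose differences were -0.32, -0.39, -0.32 and -0.87. Without replicate 8 these differences were -0.21, -0.28, -0.22 and -0.36.

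Loss of Mef2c in excitatory neurons was assessed against Mef2c f/f within each sleep condition. In CS, catalase and mitochondrial Prdx3 were higher in Mef2c-cKO, 2 of 10 beside 7.67% of 12681 genes called in either direction and 3.17% called higher. Cat was 25.7, 27.1, 26.4 and 28.8 CPM in Mef2c f/f and 32.7, 37.4 and 44.3 CPM in Mef2c-cKO, and its log2 fold change was 0.48 ± 0.11 (SE) (adjusted p = 0.0377). Prdx3 was 37.3, 37.9, 32.4 and 33.2 CPM in Mef2c f/f and 50.1, 44.6 and 45.0 CPM in Mef2c-cKO, and its log2 fold change was 0.40 ± 0.09 (SE) (adjusted p = 0.0382). In both genes the groups did not overlap, nor did they in Prdx2 and Prdx6, 4 of 10 beside 26.9% of all genes tested. All 10 genes had fitted values above 0, from 0.09 (Sod1) to 0.91 (Prdx6), with a median of 0.40 beside 0.03 over all genes tested.

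These calls rested on few libraries. Without Mef2c-cKO CS replicate 8 the log2 fold change of Cat was 0.37 (adjusted p = 0.0791) and that of Prdx3 0.42 (adjusted p = 0.0638), and none of the 10 genes was called. The fitted value of Prdx6 fell from 0.91 ± 0.32 (SE) (adjusted p = 0.11) to 0.40 (adjusted p = 0.0551), as its 314 CPM in replicate 8 stood beside 108 and 110.2 CPM in the other 2. Under the GC and length correction Prdx3 was at 0.25 (adjusted p = 0.0779), not called. Cat also lost its call without any of Mef2c f/f CS replicates 1, 2 and 3 or Mef2c-cKO CS replicate 7, and Prdx3 without any of Mef2c f/f CS replicates 2, 3 and 4 or Mef2c-cKO CS replicates 5 and 7. With CPM as deposited 4 of the 10 were called, and the split of all calls went from 402 higher and 571 lower to 882 higher and 346 lower. Microglial markers summed to 137 to 158 CPM in Mef2c f/f CS and 163 to 435 CPM in Mef2c-cKO CS, with none of 6 called, and astrocyte markers to 3996 to 4310.5 and 3582 to 5496 CPM, with 1 of 6 called higher. Meningeal fibroblast markers had 3 of 6 and oligodendrocyte markers 2 of 6 called higher, and red blood cell markers 2 of 5 called lower, with a median of -1.75. Their part in these values was not tested.

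In SD, none of the 10 genes was called between Mef2c f/f and Mef2c-cKO, beside 15.1% of 12774 genes called in either direction. Gpx1 was 37.0, 39.8 and 35.9 CPM in Mef2c f/f and 44.3, 48.1 and 44.6 CPM in Mef2c-cKO. Prdx3 was 36.1, 34.5 and 38.2 CPM in Mef2c f/f and 43.4, 46.0 and 41.1 CPM in Mef2c-cKO. Both passed the adjusted p (Gpx1 0.0317 and Prdx3 0.0435) with log2 fold changes of 0.28 ± 0.07 (SE) and 0.26 ± 0.07 (SE), below the threshold of 0.3. In Cat, Gpx1, Prdx1, Prdx3 and Prdx5 every Mef2c-cKO library exceeded every Mef2c f/f library, 5 of 10 beside 40.3% of all genes tested. Microglial markers had 4 of 6 called higher and inhibitory neuron markers 3 higher and 1 lower. Astrocyte markers had 2 of 6 called higher and excitatory neuron markers 2 of 6 called lower, with a median of -0.21 for the excitatory markers. Meningeal fibroblast and choroid plexus markers had 1 each called higher, oligodendrocyte markers 1 lower and endothelial markers 1 higher and 1 lower. The part of all these cells in the values was not tested.

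**Figure D4:**
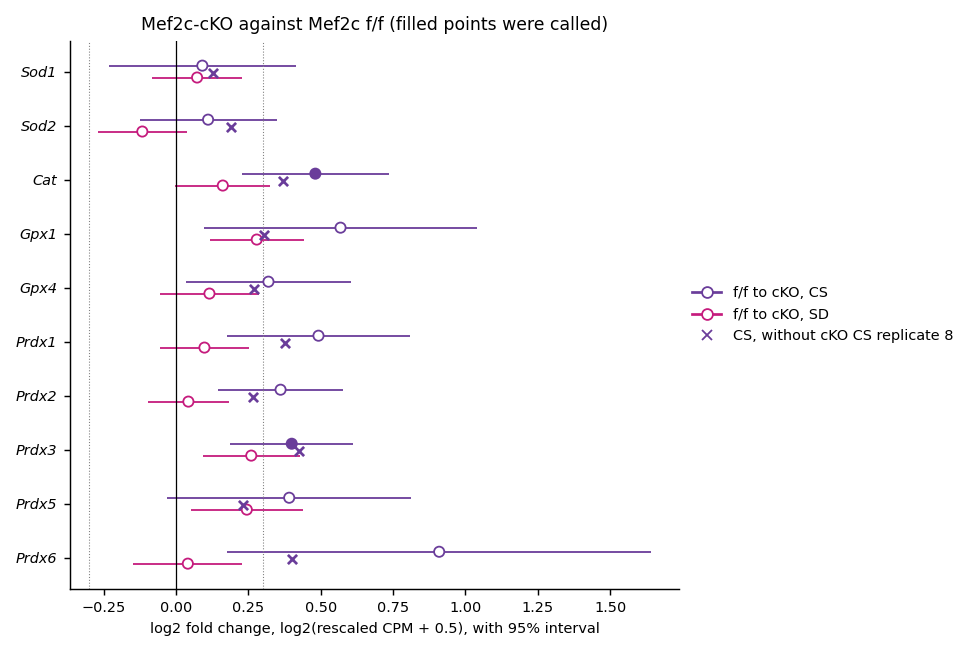
Log2 fold change of Mef2c-cKO over Mef2c f/f (horizontal axis, linear, with 95% intervals) for the 10 genes in CS and in SD, with filled points for called genes, crosses for the CS value without Mef2c-cKO CS replicate 8 and dotted lines at 0.3. Cat and Prdx3 are filled in CS, and the cross of Prdx6 lies at 0.40 where its point lies at 0.91.

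The genes that support these enzymes were followed in 5 lists of 68 genes, all tested. In WT CS to SD, 22 were called higher and none lower, 32.4%. Over all genes tested, 45.1% were called in either direction and 24.6% higher, and the counts of each list below stand beside these shares. Under the GC and length correction, run on these lists after their values were seen, 9 were called higher and 3 lower, and with CPM as deposited 40 were higher. Metal, iron and superoxide handling stood at 7 of 9 called higher, with a median log2 fold change of 0.77. It was led by the metallothioneins Mt1 (0.93 ± 0.28 (SE), adjusted p = 0.0152) and Mt2 (0.86 ± 0.26 (SE), adjusted p = 0.0167), which bind zinc and copper, and by the copper chaperone Atox1 (0.88 ± 0.27 (SE), adjusted p = 0.018). The ferritin subunits Fth1 (0.62) and Ftl1 (0.77), which store iron, were also higher, while Ccs, which loads copper into Sod1, had a log2 fold change of 0.27 (adjusted p = 0.0249), under the fold threshold. The lists and their members were chosen with results of these libraries known.

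The NRF2 pathway had 7 of 11 called higher, with a median of 0.40. Mafg, a partner of NRF2 on DNA, had a log2 fold change of 0.76 ± 0.14 (SE) (adjusted p = 0.00182), biliverdin reductase Blvrb 0.57 ± 0.14 (SE) (adjusted p = 0.00686) and Keap1, which marks NRF2 for degradation, 0.50 ± 0.13 (SE) (adjusted p = 0.00942). The transcript of NRF2 itself, Nfe2l2, was at -0.17 (adjusted p = 0.528) and that of heme oxygenase Hmox1 at 0.30 (adjusted p = 0.131). Bach1, which represses antioxidant response elements, was also among the genes called higher, at 0.30 (adjusted p = 0.00906). The list thus holds inhibitors as well as targets among its called genes.

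Of the thioredoxin system, 4 of 15 were called higher, with a median of 0.10. They were the thioredoxin inhibitor Txnip (0.75 ± 0.14 (SE), adjusted p = 0.00164), the sestrin Sesn2 (0.62 ± 0.23 (SE), adjusted p = 0.0334), the mitochondrial thioredoxin Txn2 (0.45 ± 0.10 (SE), adjusted p = 0.00523) and sulfiredoxin Srxn1, which repairs overoxidised peroxiredoxins (0.39, adjusted p = 0.00473). Prdx4, the peroxiredoxin of the endoplasmic reticulum, was at 0.00 (adjusted p = 0.987). Glutathione genes had 2 of 21 called higher, with a median of 0.10, the mitochondrial glutaredoxin Glrx5 (0.69 ± 0.19 (SE), adjusted p = 0.0109) and the transferase Gstp1 (0.62 ± 0.18 (SE), adjusted p = 0.0118). The subunits of the enzyme that limits glutathione synthesis, Gclc and Gclm, were at -0.35 (adjusted p = 0.0514) and -0.29 (adjusted p = 0.0528). Selenoprotein genes had 2 of 12 called higher, with a median of -0.07, Selenom (0.89 ± 0.25 (SE), adjusted p = 0.0114) and Sephs2, which makes the selenium donor (0.38 ± 0.15 (SE), adjusted p = 0.0423).

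In WT CS to RS, 13 of the 68 genes were called higher and none lower, 19.1%. Over all genes tested, 17.5% were called in either direction and 9.28% higher. Of the 13, 5 were for metal and iron handling, 4 for the NRF2 pathway, 2 for glutathione, 1 for thioredoxin and 1 for selenoproteins. None of the 68 was called in 7 of the 13 fits that left out a library (WT CS replicates 2 and 3 and WT RS replicates 3, 4, 5, 6 and 12), 1 was called without WT CS replicate 1, and none without the filter on low values. Under the GC and length correction 1 was higher and 1 lower. Mt2 stood at 0.97 ± 0.27 (SE) (adjusted p = 0.0388) and the metallothionein Mt3 at 0.81 ± 0.19 (SE) (adjusted p = 0.0333). In WT SD to RS, Mef2c f/f CS to SD, Mef2c-cKO CS to SD and the difference between the responses of Mef2c-cKO and Mef2c f/f, none of the 68 was called, although 6 were higher and 1 lower in Mef2c f/f without CS replicate 1. Between Mef2c f/f and Mef2c-cKO, 7 were called higher and none lower in CS, 10.3% beside 7.67% called in either direction and 3.17% called higher. The extracellular glutathione peroxidase Gpx3 was at 1.18 ± 0.31 (SE) (adjusted p = 0.0499) and ferritin Ftl1 at 0.89 ± 0.19 (SE) (adjusted p = 0.0259). Gpx3 had 1.16 ± 0.22 (SD, n = 4) CPM in Mef2c f/f CS, near the filter of 1 CPM, and 3.56 ± 2.15 (SD, n = 3) CPM in Mef2c-cKO CS. For Ftl1 these were 90.3 ± 11.7 and 172 ± 54.1 CPM. Without Mef2c-cKO CS replicate 8, 1 of the 68 was called higher, none without Mef2c f/f CS replicate 2 or Mef2c-cKO CS replicate 7 and 1 to 7 without each of the other 4, and under the GC and length correction 2 were higher and 2 lower. In SD 8 were called higher and none lower, 11.8% beside 15.1% of all genes called in either direction, with 1162 of 12774 genes called higher. The membrane transferase Mgst1 was at 0.93 ± 0.13 (SE) (adjusted p = 0.00343). Of the 68, 2 were higher under that correction and 1 without Mef2c f/f SD replicate 1. Thioredoxin Txn1, the electron donor of Prdx1 and Prdx2, was called in both, at 0.47 ± 0.12 (SE) in CS (adjusted p = 0.0497) and 0.35 ± 0.08 (SE) in SD (adjusted p = 0.0219). For Mef2c f/f minus WT, 5 of the 68 were called lower and none higher, 7.35% beside 15.1% called in either direction and 5.78% called lower. Among them were Mt3 at -1.05 ± 0.31 (SE) (adjusted p = 0.0359) and Ccs at -0.52 ± 0.15 (SE) (adjusted p = 0.0303). Under that correction 1 of the 68 was lower, and 15 were with CPM as deposited. None was called without any of Mef2c f/f CS replicates 2 and 4 or Mef2c f/f SD replicates 1 and 3.

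Within groups, most of the 10 genes rose and fell together from library to library. Deviations from the group mean on the log2 scale had a Pearson r above 0 in 36 of the 45 pairs over 33 libraries, with a median of 0.53, as a description of libraries that share depth, composition and scaling. No r was taken without WT CS replicate 2 (lowest in Gpx4 and Prdx5) or Mef2c-cKO CS replicate 8 (highest in Prdx6). Gpx4 and Prdx5 had the highest r, 0.95, followed by Sod2 and Prdx3 at 0.86 (both mitochondrial) and Gpx1 and Prdx2 at 0.82. Catalase ran the other way, with r of -0.58 to Gpx4, -0.54 to Prdx3 and -0.50 to Sod2. Among 11570 genes with CPM of at least 1 in every library, the genes most like Gpx4 were Rab1b, Timm13 and Mydgf (r of 0.98 each). Those most like Prdx5 were Mydgf, Atp6v0b and Mfsd12 (0.96 each) and those most like Sod1 were Naa38 (0.94), Dffa and Mif (0.92 each). For Cat they were B2m, the microglial receptor P2ry12 (0.91 each) and Sass6 (0.90), and for Prdx6 Grn (0.92), Pbxip1 (0.88) and Dhrs1 (0.87). Sod2 was nearest to Chtop (0.95), Golga7 and Tmem41b (0.90 each), and Prdx3 to Med28, Mrps14 and Tmem60 (0.90 each). Gpx1 was nearest to Cox8a (0.89), Psmd8 (0.87) and Ppib (0.86), Prdx1 to Tmsb4x (0.86), Psph (0.85) and Pnmal1 (0.84), and Prdx2 to Ppib, Mt1 (0.87 each) and Tmed3 (0.86).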

How the data were processed

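By the study's methods, the authors mapped stranded paired reads with STAR (mm10), took unique alignments per gene with HTSeq and used edgeR for conversion to CPM, reads per 1000000. The deposited table holds CPM of 21565 genes in 33 libraries. Reads shared with near-identical copies were thereby left out, and the annotation names Prdx6b, Prdx6-ps2, Prdx2-rs3 and Gpx4-ps2 as copies or pseudogenes, so those parents' values are uncertain. The annotation release was not given in the sources used here. Whole reads were recovered for 100% of 711645 values (within 0.01 of a whole number). Libraries are the replicates numbered in the labels, so p-values measure the spread between libraries.

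Each library's CPM were scaled with a median-of-ratios factor (from 11570 genes) and log2(CPM + 0.5) was fitted, so fold changes on this scale understate those of low genes. A gene entered if every replicate of any compared group reached a CPM of 1. The fit used limma 3.58.1 in R 4.3.3 (eBayes with trend), on the compared groups alone. Calls needed a Benjamini-Hochberg adjusted p up to 0.05 over all genes tested and a log2 change of 0.3 or more in size, and differences between responses needed the adjusted p alone. As alternatives, edgeR 4.0.16 and DESeq2 1.42.0 were run on the recovered reads, and the pseudocount, scaling, filter, weights, GC content and length (available for 90.4% of genes), libraries in the fit, replicate number and single libraries were varied. The fits were tested on simulated data.

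The 10 genes were named in every comparison. From each related list, the 3 called genes with the largest change in WT CS to SD were named, and up to 3 in other comparisons, and further genes of those lists were named after their values were seen. The genes, the lists and the cell type markers were chosen with earlier results of these data known. Gene lengths for levels per kb are of the principal transcript in GENCODE M21. The GC content, its percentiles and the lengths of the correction are of the longest transcript of each gene. For Sod1 that is 3970 bases, beside a principal transcript of 641. Promoters are from RefSeq. Of 21 same-numbered pairs of libraries, 12 had a correlation of their deviations over 0.1 (range -0.73 to 0.66), beside 47 of 133 pairs with other numbers. In WT CS to RS the 6 same-numbered pairs lay at 0.049 to 0.66. Since not every pair exceeded 0.1, the numbers were not taken as pairs. This strict rule cannot exclude pairing. With the numbers as a block, 0 of the 10 genes were called in WT CS to SD and 4 in WT CS to RS.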

Additional observations from a re-analysis of the deposited data

Results flagged for a closer look

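Cat stood at 83.3 CPM in WT RS replicate 1, far above the other 6 RS libraries at 31.7 to 41.1 CPM, and Prdx5 at 135 CPM in Mef2c f/f CS replicate 4, above the other 3 at 90.0 to 97.4 CPM, each by a gap larger than Dixon's 95% critical value. These were 2 of 40 combinations of gene and group tested, and chance alone marks about 1 in 20. Groups of 3 libraries were not screened. Prdx6 in Mef2c-cKO CS, at 314 CPM in replicate 8 beside 108 and 110.2 CPM, was therefore outside this check. The response of Sod1 to SD differed between Mef2c f/f and WT by -0.75 on the log2 scale (limma interaction, adjusted p = 0.033), higher after SD in WT and within the range of CS in Mef2c f/f.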

How the results depend on the processing

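Of 2200 refits of the 10 genes in the 9 comparisons, 2101 kept the side of the threshold, 47 lost a call and 52 gained one, none reversed a called value, and 70 uncalled values changed sign. The number of the 10 genes called in WT CS to SD was 4, and 9 with CPM as deposited, 0 with the replicate block, 3 without the filter, with edgeR or under the GC and length correction, and 5 with array weights. With DESeq2 the number was also 4, but Gpx4 was not among them, so the called genes differed. In WT CS to RS it was 1, and 2 with CPM as deposited, 0 without the filter, 3 with all groups in the fit and 4 with the replicate block. Between Mef2c f/f and Mef2c-cKO in CS it was 2, and 4 with CPM as deposited or quantile normalization, 1 with TMM or the GC and length correction, 5 with array weights or DESeq2 and 6 with all groups in the fit. In SD it was 0, and 3 with CPM as deposited, 1 with quantile normalization and 2 without the fold threshold. For Mef2c f/f minus WT it was 1, and 0 without the filter, with the GC and length correction or with the replicate block, and 4 with array weights. The cause was not tested. Leaving out 1 library gave 3 to 6 in WT CS to SD, 0 to 4 in WT CS to RS, 0 to 2 in Mef2c f/f CS to SD (2 without Mef2c f/f CS replicate 1), 0 to 2 between Mef2c f/f and Mef2c-cKO in CS, 0 to 1 in SD and 0 to 1 for Mef2c f/f minus WT. The 6 in WT CS to SD were reached without WT CS replicate 5, with 5 genes higher and Cat lower. The count stayed at 0 in every setting run for WT SD to RS, Mef2c-cKO CS to SD and the difference between Mef2c-cKO and Mef2c f/f.

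Over all genes, the calls in WT CS to SD numbered 5825, with 2543 under the GC and length correction and 287 with the replicate block. In WT CS to RS they numbered 2232, with 385 without the filter, 636 under that correction, 1623 with edgeR, 3420 with DESeq2, 4017 with all groups in the fit and 4279 with the block. Between Mef2c f/f and Mef2c-cKO in CS they numbered 973, with 3402 with array weights, 2167 with all groups in the fit and 2095 with DESeq2. In Mef2c f/f CS to SD they numbered 5, with 466 with DESeq2, 1750 with array weights and 115 under the correction. For Mef2c f/f minus WT they numbered 1983, with 252 under the correction and 0 with the block. Leaving out 1 library gave 0 to 3740 in WT CS to RS (0 in 5 of 13 fits), 0 to 590 in Mef2c f/f CS to SD, 171 to 875 between Mef2c f/f and Mef2c-cKO in CS, 822 to 2447 in SD and 23 to 3300 for Mef2c f/f minus WT. The replicate numbers were not taken as pairs: 13 of 42 libraries with a same-numbered partner correlated best with it. These were 2 of 10 in WT CS to SD, 4 of 12 in WT CS to RS and 1 of 10 in WT SD to RS. In Mef2c f/f CS to SD they were 2 of 6, and in Mef2c-cKO CS to SD 4 of 4. Between Mef2c f/f and Mef2c-cKO no paired analysis was possible because the groups share no replicate number. The fit of all groups took all WT groups for comparisons within WT and all Mef2c f/f and Mef2c-cKO groups for comparisons among those. It took every group of the series only for Mef2c f/f minus WT. For the difference between Mef2c-cKO and Mef2c f/f, the fit reported already held all Mef2c f/f and Mef2c-cKO groups. Each of the 10 genes had at least 563 reads in every library.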
